A study of Mus musculus with 2 samples.

Results

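The genes described here are 10 components of the inflammasome, taken by symbol from the expression table of wild-type mouse bone marrow-derived macrophages (BMDMs), and all 10 were found among its 15576 genes. They comprise 6 sensors (Nlrp3, Nlrp1b, Nlrc4, Naip5, Aim2 and Mefv), the adaptor Pycard, the caspases Casp1 and Casp4, and the pore-forming Gsdmd. BMDMs are marrow cells grown in culture into macrophages. The DCA library came from BMDMs treated for 24 h with 100 µM deoxycholic acid, a secondary bile acid made by gut bacteria. The NC library came from BMDMs without it. The sources used here do not give the vehicle or the mouse strain, and the labels leave the time between treatment and collection unclear. With 1 library per group, no difference below has a replicate check, and no test between conditions was possible.

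Inflammasomes are cytosolic complexes that assemble when a sensor meets a microbial product or a sign of cell damage. Sensors recruit caspase-1, in many cases through the adaptor ASC, the product of Pycard, and caspase-1 then cleaves the precursors of the cytokines IL-1β and IL-18 as well as gasdermin D. The freed part of gasdermin D forms pores in the plasma membrane and leads to the lytic death called pyroptosis. Mouse Casp4, long known as caspase-11, binds bacterial lipopolysaccharide in the cytosol and cleaves gasdermin D without a separate sensor. In macrophages many of these proteins are present before a stimulus and are switched on by cleavage and assembly, which messenger RNA does not show.

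Casp4 was the member that differed most between the libraries, 25.9% higher in DCA than in NC. The other 9 members lay between 0.933 and 1.07 times their NC value, and the central components Nlrp3, Casp1 and Gsdmd within 2% of it. Values are the authors' FPKM, which are reads divided by gene length in kilobases and by library size in 1e6 reads. Reads were rebuilt from them, and each ratio is DCA over NC scaled to the read totals, with an exact Clopper-Pearson 95% interval that covers counting error only. The read totals behind the FPKM were 56.57 for DCA and 59.21 for NC, in 1e6 reads, and the members rested on 750 to 6420 reads a library. In bulk samples, fewer cells of a type and less RNA per cell cannot be told apart.

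No member was at least 1.2-fold apart on the log2(FPKM + 1) scale, where 2.83% of all 9656 tested genes were, a gene being tested if its FPKM averaged 1 or more. Because 1 is added to every value, this scale shrinks ratios at low FPKM. By the ratio without a pseudocount, 1 of the 10, Casp4, passed 1.2-fold, beside 6.05% of all tested genes. The counting interval lay off equality for 3 of the 10 members, Casp4 and Pycard above and Aim2 below, against 45.7% of all tested genes with rebuilt reads (25.6% above, 20.0% below). Of the members, 6 were higher and 4 lower in DCA, beside 53.5% of all tested genes that were higher. The median difference of log2(FPKM + 1) was 0.02 for the members and 0.01 for all tested genes. With 10 members, counts of 0 or 1 cannot be set apart from shares of 2.83% or 6.05%.

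**Figure D1:**
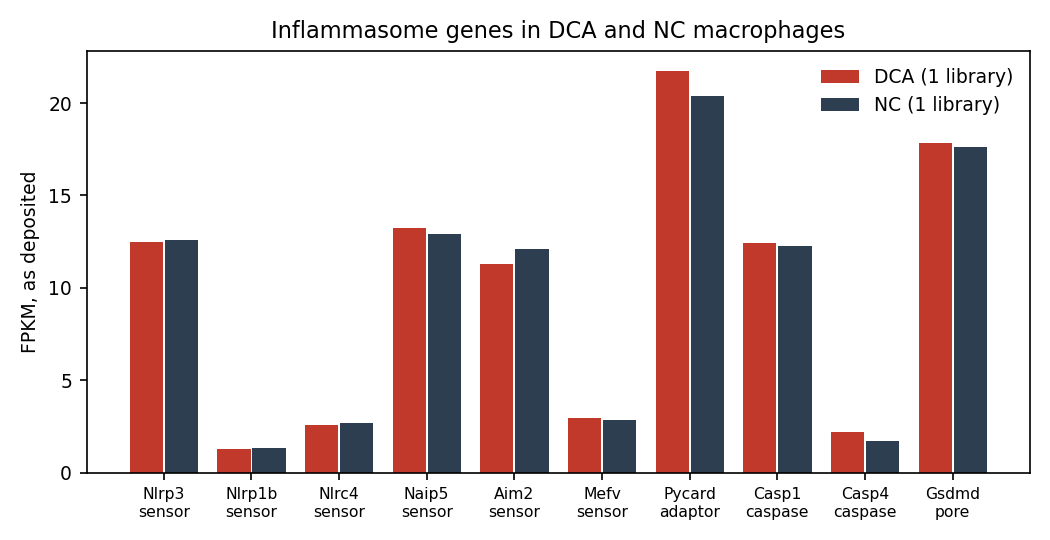
FPKM of each member, with the DCA library in red on the left and the NC library in dark blue on the right of each pair; each bar is 1 library. The bars of a pair are close, Casp4 stands at 2.18 in DCA and 1.74 in NC, and heights of different genes are not comparable because of how gene length enters the FPKM.

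**Figure D2:**
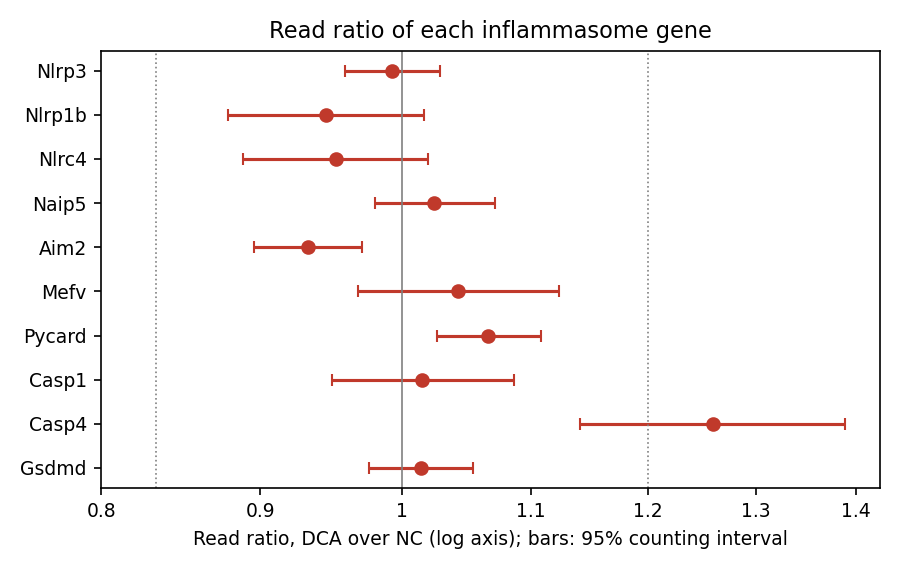
Read ratio of each member, DCA over NC, on a log axis, with bars for the 95% counting interval, a grey line at 1 and dotted lines at 1.2-fold. Only the intervals of Aim2, Pycard and Casp4 leave out 1.

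Casp4 and Casp1 are neighbours. Casp1 (ENSMUSG00000025888, GRCm38 chromosome 9, 5298517 to 5307265, plus strand) ends 1562 bases before Casp4 begins (ENSMUSG00000033538, chromosome 9, 5308828 to 5336783, plus strand). Both encode inflammatory caspases, with 69.5% identity over 1039 aligned coding bases. The sequences just before their first annotated exons are shown because these adjacent genes differed in their ratios. They are RefSeq sequences of GRCm38.p6, 5′ to 3′ on the plus strand, and neither window holds an annotated exon. Capitals mark GAGGAA on either strand (TTCCTC where it lies on the minus strand), a form of the motif of the myeloid factor PU.1. The Casp4 window does not hold this full string, but both windows hold the shorter GGAA on either strand. What part these letters have in the ratios was not tested.
Casp4, chr9:5308599-5308827: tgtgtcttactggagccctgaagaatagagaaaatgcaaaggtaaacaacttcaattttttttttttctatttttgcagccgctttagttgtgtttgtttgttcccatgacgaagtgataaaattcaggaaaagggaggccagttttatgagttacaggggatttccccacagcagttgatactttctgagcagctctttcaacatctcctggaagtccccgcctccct
Casp1, chr9:5298267-5298516: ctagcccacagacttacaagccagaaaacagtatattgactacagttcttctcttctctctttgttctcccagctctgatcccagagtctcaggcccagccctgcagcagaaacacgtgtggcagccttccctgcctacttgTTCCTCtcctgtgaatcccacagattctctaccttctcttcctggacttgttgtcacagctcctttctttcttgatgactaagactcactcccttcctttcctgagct

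The 12 windows of 250 bases before the RefSeq starts of 9 members, 3 of which have 2 starts, were searched on both strands for GAGGAA. It was found in 5 of the 12, 1 each of Nlrp3, Nlrp1b, Aim2, Pycard and Casp1, and is held by 23.3% of the 32851 windows of all genes. The second windows of Nlrp3 and Nlrp1b do not hold it. A match of these letters is a description and does not show that a factor binds there.

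Casp4 had 2.18 FPKM in DCA and 1.74 FPKM in NC, from 902 DCA and 750 NC reads, the fewest of the members. Its read ratio was 1.26 (1.14 to 1.39), and 3.45% of all tested genes had a ratio further from 1 in either direction. On the log2(FPKM + 1) scale the same values differ by 0.22, which is 1.16-fold. Casp1, the caspase that inflammasomes activate, had 12.4 FPKM in DCA and 12.2 FPKM in NC. The annotated length did not turn these into whole reads. The smallest length that did was 2437 bases, with 1714 reads in DCA and 1767 in NC and a ratio of 1.02 (0.949 to 1.09). Multiples of this length would give more reads and a narrower interval at the same ratio, so the reads and the interval of Casp1 are not fixed. With these reads, the intervals of Casp4 and Casp1 did not overlap. No exon of either overlaps another annotated gene.

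Interferon induces Casp4, and the difference was measured beside others in the same libraries. Of the 12 interferon-stimulated genes listed, 11 were tested and all 11 were higher in DCA, with a median FPKM ratio of 1.06 and a range of 1.004 to 1.21, beside 53.5% of all tested genes that were higher. The counting interval lay above 1 for 3 of the 11, near the 25.6% of all tested genes. Zbp1, a sensor of Z-form nucleic acids that is itself interferon-inducible, had 2.41 FPKM in DCA and 1.84 FPKM in NC, from 831 DCA and 663 NC reads, which is a read ratio of 1.31 (1.18 to 1.46). All 14 neutrophil markers lay higher in DCA, at a median ratio of 1.17. So did the 8 tested lymphocyte markers, at a median of 1.22. In both lists every tested gene had its interval above 1. Cd4, the lymphocyte marker with the highest tested ratio (1.52), passed the filter only through DCA, at 1.26 FPKM against 0.831 in NC. Lymphocyte markers under the filter differed in direction and are given below. The part of interferon and of these cells in the Casp4 difference was not tested.

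Gsdmd, the pore protein that both caspases cut (ENSMUSG00000022575, chromosome 15, 75862327 to 75867408, plus strand), had 17.9 FPKM in DCA and 17.6 FPKM in NC. Its 5154 reads in DCA and 5320 in NC gave a ratio of 1.01 (0.976 to 1.05). At this depth counting error alone leaves room for a few percent in either direction, and the spread between cultures is unknown.

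Pycard encodes the adaptor ASC, which joins a sensor's pyrin domain to the CARD of caspase-1 (ENSMUSG00000030793, chromosome 7, 127989708 to 127993867, minus strand). It had 21.7 FPKM in DCA and 20.4 FPKM in NC, from 5280 DCA and 5184 NC reads, which is a read ratio of 1.07 (1.03 to 1.11). Its exons share 485 bases, 12.8% of its exonic sequence, with Gm45205, an annotated transcript on the opposite strand that has no value in the table. The sources used here do not say whether counting used strand, so the Pycard value is uncertain to that extent. Of all tested genes, 36.8% had a ratio further from 1.

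Among the sensors, Nlrp3 responds to ion fluxes and organelle damage (ENSMUSG00000032691, chromosome 11, 59541568 to 59566956, plus strand). It had 12.5 FPKM in DCA and 12.6 FPKM in NC, from 6089 DCA and 6420 NC reads, and 90.9% of all tested genes had a ratio further from 1. Aim2, which binds double-stranded DNA in the cytosol (ENSMUSG00000037860, chromosome 1, 173350879 to 173466040, plus strand), had 11.3 FPKM in DCA and 12.1 FPKM in NC. Its 4538 reads in DCA and 5093 in NC gave a ratio of 0.933 (0.896 to 0.971), the lowest of the members. Aim2 is counted among interferon-inducible genes, and the part of interferon in its difference was not tested. A difference of this size was common, since 33.0% of all tested genes had a ratio further from 1.

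Naip5 and Nlrc4 act as a pair, in which NAIP5 binds bacterial flagellin and then recruits NLRC4. Nlrc4 (ENSMUSG00000039193, chromosome 17, 74425438 to 74459142, minus strand) was at 2.57 FPKM in DCA and 2.70 FPKM in NC, from 1597 DCA and 1756 NC reads, which is a read ratio of 0.952 (0.889 to 1.02). Naip5 (ENSMUSG00000071203, chromosome 13, 100211739 to 100246323, minus strand) was at 13.2 FPKM in DCA and 12.9 FPKM in NC, from 3898 DCA and 3982 NC reads, which is a read ratio of 1.02 (0.980 to 1.07). Both intervals hold 1, so neither difference was detectable at this depth.

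Naip5 belongs to a cluster of near-copies on chromosome 13, and its reads are less certain than those of the other members. Its coding sequence is 97.0% identical to that of Naip6, 92.2% to Naip1 and 90.5% to Naip2. Of all 50-base stretches of its transcript, 36.9% also occur in transcripts of another gene, and 16.2% of the 100-base stretches do. The gene that shared most of them was Naip6 at 50 bases, followed by Naip3, and Naip3 at 100 bases. Naip3 was not among the copies compared here, so the copies named above do not account for all shared stretches. The coding start of Naip5, Naip6, Naip1 and Naip2 is printed here (GENCODE vM21, minus strand, capitals where a base differs from Naip5):
Naip5, chr13:100246140-100246199: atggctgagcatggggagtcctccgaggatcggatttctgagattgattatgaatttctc
Naip6, chr13:100316492-100316551: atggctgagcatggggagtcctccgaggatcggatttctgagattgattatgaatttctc
Naip1, chr13:100444678-100444737: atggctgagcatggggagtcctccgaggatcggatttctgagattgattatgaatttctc
Naip2, chr13:100189339-100189398: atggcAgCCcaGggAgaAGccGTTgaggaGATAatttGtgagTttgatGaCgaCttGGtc

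The first 60 coding bases of Naip6 and Naip1 equal those of Naip5, while Naip2 differs at 21. This window was picked as the one where Naip6 equals Naip5 and Naip2 differs most. It is therefore not typical of the coding sequences, whose identities are given above. The sources used here do not say how reads from such stretches were assigned. The intervals of the copies printed above overlapped that of Naip5, whose ratio was 1.02 (0.980 to 1.07), but Naip6 lay on the other side of 1. Naip2, a sensor of the type III secretion rod protein, had 6903 reads in DCA and 7083 in NC, which is a read ratio of 1.02 (0.987 to 1.06). Naip6, a further flagellin sensor, had 3434 reads in DCA and 3741 in NC, which is a read ratio of 0.961 (0.917 to 1.01). Naip1, under the filter and so not among the tested, had 173 reads in DCA and 180 in NC. Its read ratio was 1.01 (0.812 to 1.25).

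Nlrp1b is held in check by DPP9, and in some mouse strains anthrax lethal factor activates it (ENSMUSG00000070390, chromosome 11, 71153102 to 71230733, minus strand). Nlrp1b was at 1.27 FPKM in DCA and 1.35 FPKM in NC. Its 1413 reads in DCA and 1565 in NC gave a ratio of 0.945 (0.879 to 1.02). The neighbouring copy Nlrp1a went the other way, with 3.03 FPKM in DCA and 2.52 FPKM in NC, from 1316 DCA and 1143 NC reads, which is a read ratio of 1.205 (1.11 to 1.31). The coding sequences of the pair are 86.5% identical, and 1.45% of the 50-base stretches of Nlrp1b occur in another gene's transcripts. Mefv encodes pyrin, which responds to the inactivation of RhoA by bacterial toxins (ENSMUSG00000022534, chromosome 16, 3707218 to 3718097, minus strand). It had 2.98 FPKM in DCA and 2.85 FPKM in NC, from 1417 DCA and 1423 NC reads, which is a read ratio of 1.04 (0.968 to 1.12).

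**Figure D3:**
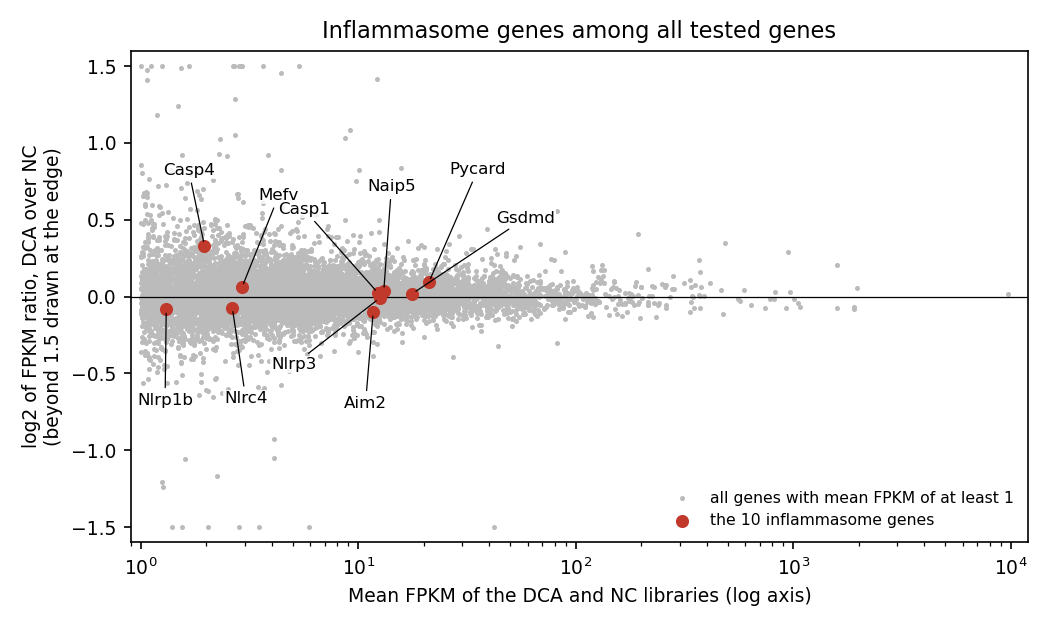
The log2 of the FPKM ratio, DCA over NC, against the mean FPKM of both libraries on a log axis, for all tested genes above 0 in both (grey) and for the 10 members (red). Casp4 lies near the upper edge of the grey band at its level, and the other 9 members lie inside it.

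The deposited FPKM do not allow a comparison of levels between genes, because the gene length behind them is the summed length of all annotated transcripts. Reads per kilobase of non-overlapping exonic sequence and 1e6 reads were therefore computed for the 9 members other than Casp1, whose annotated length did not give whole reads. On this scale Gsdmd was highest, at 38.3 in DCA and 37.8 in NC. Nlrp3 followed at 26.5 in DCA and 26.7 in NC. Pycard was at 24.6 in DCA and 23.0 in NC, and Aim2 at 22.9 in DCA and 24.6 in NC, so that Pycard and Aim2 changed places between the libraries. Naip5 was at 13.2 in DCA and 12.9 in NC. Mefv was at 7.71 in DCA and 7.39 in NC, and Nlrc4 at 5.87 in DCA and 6.17 in NC. Casp4 was at 4.30 in DCA and 3.41 in NC, above Nlrp1b (3.96) in DCA and below it (4.19) in NC. Retained introns are part of the exonic sequence here, so genes with many annotated transcripts, such as Casp4 and Aim2 with 7 each, may be set too low.

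The other genes of the pathway numbered 95 in 10 lists, of which 90 were in the table and 77 were tested. Of these, 44 were higher and 33 lower in DCA, beside 53.5% of all tested genes that were higher. Their median ratio was 1.02. The counting interval lay above 1 for 25 and below 1 for 12 of the 77, near the shares over all tested genes of 25.6% above and 20.0% below. On the log2(FPKM + 1) scale 1 gene of the 77, Zbp1, passed 1.2-fold, beside 2.83% of all tested genes. The NLRP3 triggers and licensing factors lay lower for 9 of 13, and their median ratio was 0.950. Their interval lay below 1 for 7 of 13 and above for 3, beside 20.0% below and 25.6% above over all tested genes. Among them Nek7, a kinase that binds NLRP3 for its assembly, had a ratio of 0.950 (0.922 to 0.978). Panx1, a channel that releases ATP, had a ratio of 0.937 (0.886 to 0.991). P2rx7, the ATP-gated channel upstream of NLRP3, was on the other side at 1.097 (1.05 to 1.15), and Txnip, a thioredoxin-binding protein, was at 0.996 (0.980 to 1.01).

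The guanylate-binding and immunity-related GTPases are interferon-inducible proteins. Among them, guanylate-binding proteins can expose lipopolysaccharide to caspase-11, a role not shared by every gene of this list. Of 6 tested genes of both families 5 were higher in DCA, beside 53.5% of all tested genes, and their median ratio was 1.12. Their interval lay above 1 for 3 of 6 and below for 0, beside 25.6% above and 20.0% below over all tested genes. Gbp2 had 804 reads in DCA and 738 in NC, which is a read ratio of 1.14 (1.03 to 1.26). Gbp5, under the filter with a mean FPKM below 1, had 338 reads in DCA and 272 in NC, which is a read ratio of 1.301 (1.11 to 1.53). The median of these GTPases stood beside a median of 1.06 for the interferon-stimulated genes. Of the remaining sensors, 6 of 11 tested were higher, beside the same 53.5%, and the interval lay above 1 for 4 and below for 0. Nod1, a sensor of bacterial peptidoglycan fragments, was at 1.129 (1.05 to 1.22). The related Nod2, under the filter and so not among the tested, was at 0.945 (0.830 to 1.08).

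The cytokine Il1b, the main substrate of caspase-1, had 20.3 FPKM in DCA and 19.2 FPKM in NC, which is a read ratio of 1.06 (1.002 to 1.11). Il18 had 354 reads in DCA and 408 in NC, which is a read ratio of 0.908 (0.785 to 1.05), which holds equality. Il1a had 15 reads in DCA and 41 in NC, which is a read ratio of 0.383 (0.197 to 0.707), and lay under the filter. Il1rn, the receptor antagonist of IL-1, was at 1.104 (1.03 to 1.18). Il18bp, which traps IL-18, was at 1.003 (0.859 to 1.17) and also lay under the filter. Only 1 of the 5 tested genes of this list of cytokines and receptors was higher in DCA. Of 8 tested inhibitors 6 were higher, with Dpp9 at 1.04 (1.004 to 1.08) among them. The share over all tested genes was 53.5%. Dpp8, the other dipeptidyl peptidase that restrains NLRP1B, was at 0.950 (0.928 to 0.973).

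Of the other genes of cell death, 8 of 12 tested were higher, and the median ratio was 1.04. For this list and those below, the share over all tested genes was 53.5% higher. Ninj1, which ruptures the membrane after the gasdermin pore has formed, had 34.02 FPKM in DCA and 36.5 FPKM in NC, from 8971 DCA and 10070 NC reads, which is a read ratio of 0.932 (0.906 to 0.959). Gsdme, a further pore-forming gasdermin, was at 1.03 (0.971 to 1.103), and Casp8, a caspase of the death receptors, at 0.985 (0.953 to 1.02). ESCRT components, which remove damaged membrane, were higher in 4 of 7, with ratios between 0.982 and 1.04. In the pyrin pathway 4 of 5 were higher, with ratios between 0.977 and 1.05, and Pstpip1, a partner of pyrin, was at 1.01 (0.977 to 1.04).

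Receptors and transcription factors that set the level of inflammasome genes lay higher in DCA for 6 of 9, at a median ratio of 1.05. Over all tested genes 53.5% were higher. Their interval lay above 1 for 5 of 9 and below for none, beside 25.6% above and 20.0% below over all tested genes. Irf8, known to drive Naip genes, had a ratio of 1.08 (1.06 to 1.105). Beside it, Naip5 was at 1.02, Naip2 at 1.02, Naip1 at 1.01 and Naip6 at 0.961. Irf2, known to drive Gsdmd, had a ratio of 1.05 (1.01 to 1.095), beside Gsdmd at 1.01. Irf1, whose length was also found by search, was at 1.105 (1.06 to 1.15). Of the bile acid receptors, S1pr2 had 9.94 FPKM in DCA and 10.01 FPKM in NC, which is a read ratio of 0.993 (0.955 to 1.03), and Gpbar1 had 5 reads in DCA and was listed at 0 in NC. Among the pathway genes named here beside the members, exons of Il1b, Il1a, Il18bp, Nek7, P2rx7, Txnip, Dpp8, Gbp2 and Irf1 overlap another annotated gene. Among the named markers, those of Cd3e do.

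**Figure D4:**
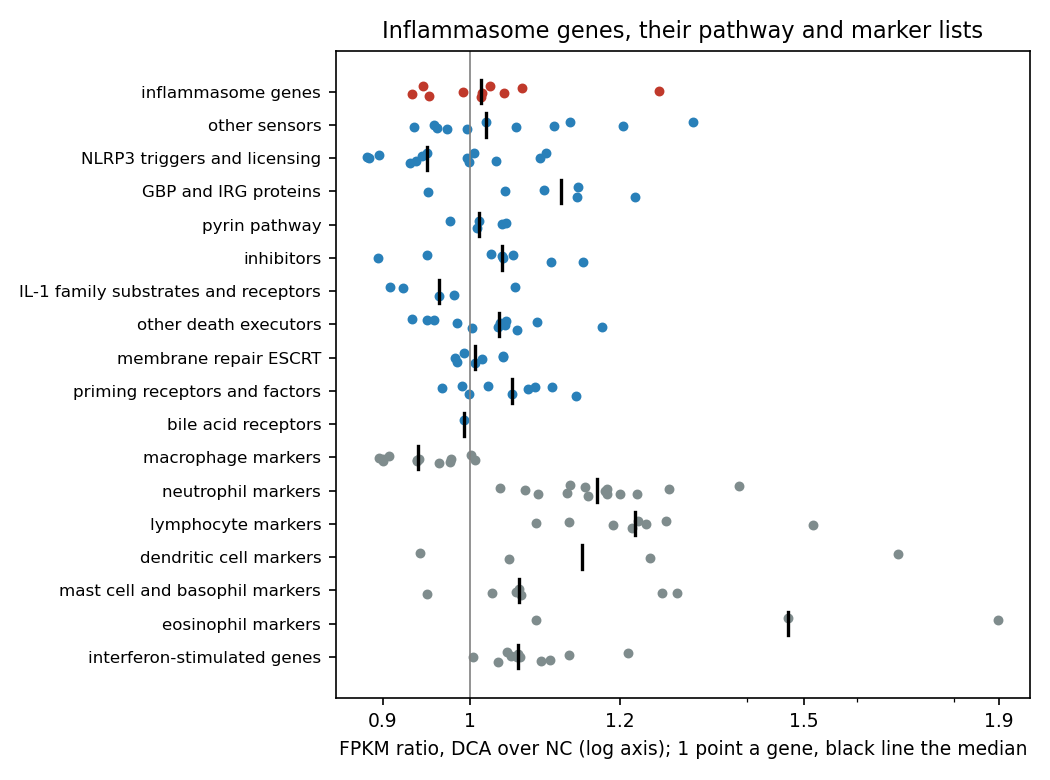
FPKM ratio, DCA over NC, on a log axis, for every tested gene of each list, 1 point a gene, with a black line at the median; the members are red, other pathway lists blue and marker or interferon lists grey. The median of the members lies at 1.01, those of the neutrophil and lymphocyte markers at 1.17 and 1.22, and that of the macrophage markers at 0.939.

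Macrophage markers were present in both libraries, with Adgre1 (F4/80) at 61.6 FPKM in DCA and 65.7 FPKM in NC. Of the 12 markers 10 were lower in DCA, with a median ratio of 0.939, while 53.5% of all tested genes were higher. Their interval lay below 1 for 9 of 12 and above for 0, beside 20.0% below and 25.6% above over all tested genes. Markers of other cells of the marrow were present too. The summed FPKM of the neutrophil list was 4249 in DCA and 3595 in NC. That of the 8 tested lymphocyte markers was 161.5 in DCA and 130.6 in NC. Because FPKM do not compare levels between genes, such sums follow the genes with the highest FPKM. Among these were S100a9, at 1699 in DCA and 1471 in NC, and Cd79a, at 76.7 in DCA and 60.4 in NC. The 3 lymphocyte markers under the filter differed in direction, with Cd8a at 458 reads in DCA and 266 in NC, Cd3d at 14 in DCA and listed at 0 in NC, and Cd3e at 7 in DCA and 16 in NC. Dendritic cell, mast cell and basophil, and eosinophil lists had median ratios of 1.15, 1.06 and 1.47, over 4, 7 and 3 tested genes. Neutrophils also carry several of the genes described above, and what part these cells have in any member's ratio was not tested.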

How the data were processed

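Messenger RNA was sequenced in 1 DCA and 1 NC library, placed in groups by their treatment labels, and the table's columns were matched to libraries by name. The authors deposited FPKM per gene. The submitters' processing notes name GRCm38 as build and HTSeq 0.6.0, STAR 2.5.0c, DESeq2 3.0, Picard 1.126 and bedtools 2.17.0 as tools, with no role or order. The sources used here do not give gene length, strand setting or gene filter.

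GENCODE vM21 held 15548 of 15576 gene identifiers. With the summed length of a gene's transcripts, the FPKM of 12068 of 12491 genes under 5000 reads (96.6%) came within 0.05 of a whole read in both libraries, including 9 of the 10 members. Casp1 and 3 genes of the lists, of which Irf1 is named, needed a length found by search, the smallest that gave whole reads. Differences are DCA minus NC in log2(FPKM + 1), and genes whose FPKM averaged 1 or more were tested against a limit of 1.2-fold. With 1 library per group there is no test. Clopper-Pearson 95% intervals cover counting error only, and PCR copies are not independent molecules. The rebuilding and the intervals were run on simulated reads drawn with the same summed gene lengths. That run could not show whether those lengths hold for the real genes. Python 3.11.15, scipy 1.17.1 and biopython 1.88 were used.

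The members and lists were chosen with earlier results of these data known. Text names all members, 29 pathway genes fixed by name except 1 that is not reported here, and up to 2 genes per list and direction beyond 1.2-fold. Marker examples were chosen after their values were seen.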

Additional observations from a re-analysis of the deposited data

How the results depend on the processing

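All 66 alternative values of single members came from 7 other settings of pseudocount, filter and scaling. They stayed within the width of the member's counting interval and kept their sign. A pseudocount cannot change the sign of a difference, and a filter leaves the value as it is. Only the scaling settings could therefore have changed a sign. The count of members at least 1.2-fold apart, 0 as reported, was 1 with a pseudocount of 0.1, after rescaling each library to 1e6, at a limit of 1.1-fold and by the ratio without a pseudocount, the last chosen after seeing the data. The share of all genes beyond the limit was then 5.46%, 5.15%, 13.8% and 6.05%, against 2.83%. It was 0.735% with a pseudocount of 5, 1.65% at a mean FPKM of at least 5 and 0.497% at 1.5-fold. The pathway genes at least 1.2-fold higher, 1 as reported, numbered 2 with a pseudocount of 0.1, 3 without one, and 0 with a pseudocount of 5, at a mean FPKM of at least 5 and with the median ratio of all genes set to 1. The 3 members whose interval lay off 1 were also 3 at other settings of the interval and scaling. No paired analysis was possible because each group has 1 library. Depth limits the members to differences of 3.52% to 9.83%, the interval half-widths, and the spread between cultures is unknown.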
